A study of Mus musculus with 6 samples.

Results

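Specification of primordial germ cells (PGCs), the embryonic precursors of eggs and sperm, rests on a small circuit of regulators that BMP signalling switches on in the epiblast. The 6 genes described here are Prdm1, Prdm14, Tfap2c, Sall4, Lin28a and Prmt5, chosen by name for their known parts in that step and matched to Ensembl gene IDs. They are 6 of the 37991 genes in the count table, and all 6 were abundant enough to be tested among the 16420 that passed the filter on low counts. Prdm1, Prdm14, Tfap2c and Sall4 encode DNA-binding transcription factors. Lin28a encodes an RNA-binding protein and Prmt5 an arginine methyltransferase, so the set is wider than transcription factors alone.

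As background, PRDM1 (also called BLIMP1) represses the somatic programme in nascent PGCs, PRDM14 restores pluripotency genes and represses DNA methyltransferases, and TFAP2C (AP2γ) acts beside both. LIN28A blocks maturation of let-7 microRNAs, one of which targets the Prdm1 transcript. PRMT5 binds PRDM1 and methylates arginines of histones H2A and H4. Prdm1, Prdm14 and Tfap2c together can drive epiblast-like cells to the PGC-like state in culture.

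The cells were mouse primordial germ cell-like cells (PGCLCs), derived from C57BL/6 embryonic stem cells through an epiblast-like stage and sorted from aggregates on day 4 of induction with BMP2, mSCF, EGF and LIF. Both groups came from stem cells with floxed Ezh2 alleles and CreERT2, a recombinase that 4-hydroxytamoxifen activates. The 3 Ctrl libraries (genotype label Ezh2f/f, CreERT2) had received ethanol, and the 3 Ezh2 KO libraries (Ezh2-/-, CreERT2) 4-hydroxytamoxifen in ethanol, so loss of Ezh2, activated Cre and the compound itself cannot be told apart. The labels name neither the promoter of CreERT2 nor the sorting gate, and do not say whether replicates were separate inductions, so p-values measure only the spread between these samples, which may be technical. Ezh2 encodes the main H3K27 methyltransferase of polycomb repressive complex 2, and the comparison asks whether transcript levels of the specification genes differ once it is deleted.

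The libraries held 27072150 to 49382146 counts each. Ezh2 itself ranged over 78.1 to 95.3 CPM in Ctrl, and over 40.8 to 70.0 CPM in Ezh2 KO without overlap, where CPM is the usual count relative to library size, with sizes scaled by TMM. By edgeR's quasi-likelihood test that difference missed the threshold (log2 fold change -0.58 ± 0.23 SE, adjusted p = 0.976). Counts are for the whole gene and may include exons outside the deleted part, which is not stated here. How complete the deletion was in these cells was not tested. Ctrl replicate 1 and Ezh2 KO replicate 2 had the extreme scores on the first principal component (-61.4 and 78.0, with the other libraries from -35.5 to 13.3). All 5 germ cell markers listed (Dppa3, Nanos3, Dnd1, Kit and Itgb3) were measured in every group, with sums of 303 to 571 CPM for Ctrl libraries, and 333 to 393 CPM for Ezh2 KO libraries. Without Dppa3, the most abundant, the sums were 100 to 316 CPM for Ctrl libraries, and 154 to 241 CPM for Ezh2 KO libraries. Markers of epiblast-like cells summed to 66.1 to 84.3 CPM for Ctrl libraries, and without overlap to 87.1 to 108 CPM for Ezh2 KO libraries (5 of 7 tested; Pou3f1 at 0 in all libraries). The separation was that of Dnmt3b alone: without it the sums were 15.6 to 36.7 CPM for Ctrl libraries, and 16.5 to 32.1 CPM for Ezh2 KO libraries, and 3 of the 5 tested markers had a negative log2 fold change (median -0.30; Foxd3 lower without overlap). All 6 tested neural markers had a negative log2 fold change (median -0.48), as had 48.7% of all tested genes. Pax6, Neurog1 and Lhx2 were lower without overlap, as were 4.03% of all tested genes. These 3 were weakly expressed, with Ctrl means of 0.739, 1.35 and 0.351 CPM beside Ezh2 KO means of 0.497, 0.251 and 0.0729. Lhx2 rested on 15, 11 and 10 reads for Ctrl, against 2, 3 and 2 for Ezh2 KO. Among the 6 neural markers edgeR called 0, and 2, both lower, had an unadjusted p under 0.05, beside 1.25% lower of all tested genes. DESeq2 with the replicate number as a block called Neurog1 (adjusted p = 0.0463), beside 0.285% of the genes it tested. The part of these markers in the results was not tested. In bulk RNA, fewer cells of a type and less RNA per cell cannot be told apart.

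Of the 6 specification genes, 0 passed edgeR's quasi-likelihood test over all genes at an adjusted p under 0.05, and 0 had an unadjusted p under 0.05. The background was the same: 0 of 16420 genes were called (0.0%), and 459 (2.8%) had an unadjusted p under 0.05. DESeq2 also called 0 of the 6, beside 0.0201% of the genes it tested (2.73% at an unadjusted p under 0.05), and limma-voom called 0, beside 0.0% (2.84% unadjusted). With the replicate number as a block, edgeR and DESeq2 again called 0 of the 6, beside 0.0% and 0.285% of genes (9.1% and 4.71% unadjusted). For each of the 6 genes the libraries of the groups overlapped, while 8.09% of all tested genes did not overlap (4.07% higher and 4.03% lower in Ezh2 KO). Permuting the libraries of each gene exactly, two-sided, gave p = 0.2 to p = 1.0, and 3 libraries against 3 allow no p under 0.1. The intervals differed widely between the genes, and they set how large a change could have been present unseen.

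The genes were expressed at very different levels. Per kilobase of exon, Tfap2c was the most abundant in Ctrl at 81.6 ± 5.46 CPM per kilobase (SD, n = 3). Sall4 stood at 72.8 ± 9.53 CPM per kilobase and Prmt5 at 62.9 ± 10.0 CPM per kilobase, and the libraries of neighbours among these 3 genes overlapped. Prdm14, at 21.6 ± 3.57 CPM per kilobase, lay 2.90-fold under Prmt5 with no overlap, and it overlapped with Lin28a at 13.2 ± 5.59 CPM per kilobase. Prdm1 came last at 1.07 ± 0.221 CPM per kilobase, 12.3-fold under Lin28a with no overlap. In rank among 15629 tested genes of known length, 94.4% lay under Tfap2c, 81.5% under Prdm14 and 29.1% under Prdm1. With the length of the longest transcript in place of all exons, Prmt5 (92.5 CPM per kilobase) lay above Sall4 (79.4) and the rest of the order stood.

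Prdm1 (ENSMUSG00000038151, chromosome 10), the zinc finger repressor that marks the first PGCs, was the least abundant. Its Ctrl libraries, given here and for every gene in the order of replicates 1, 2 and 3, read 5.88, 7.24 and 4.78 CPM, and its Ezh2 KO libraries 3.08, 5.68 and 4.15 CPM. The lowest library was Ezh2 KO replicate 1 and the highest Ctrl replicate 2, and the groups overlapped because Ezh2 KO replicate 2 lay above Ctrl replicate 3. The means were 5.96 ± 1.23 CPM for Ctrl, and 4.30 ± 1.31 CPM in Ezh2 KO (SD, n = 3). Ezh2 KO thus held 72.0% of the Ctrl level with a 95% interval of 43.3% to 119.7% (log2 fold change -0.47 ± 0.32 SE, edgeR adjusted p = 0.976). These values rest on 115 to 285 reads a library, the fewest of the 6 genes. Relative to their same-numbered Ctrl libraries, the Ezh2 KO libraries held 52.3%, 78.4% and 86.9%, lower in 3 of 3 pairs, as were 14.8% of all tested genes.

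**Figure D1:**
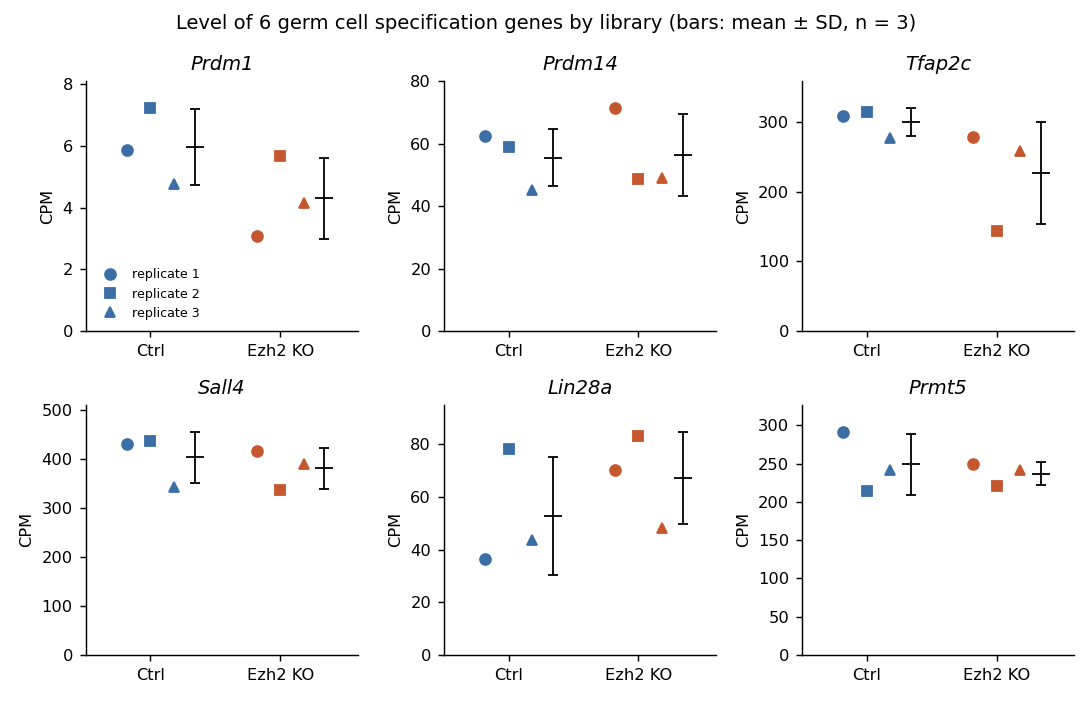
Level of each of the 6 genes in CPM (linear axis from 0, scaled per gene) in the 3 Ctrl and 3 Ezh2 KO libraries, with the symbol giving the replicate number and black bars the mean ± SD. Ranges of the 2 groups overlap in every panel; Tfap2c in Ezh2 KO replicate 2, at 143 CPM, and Lin28a in Ctrl replicate 1, at 36.3 CPM, lie lowest in their panels.

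Prdm14 (ENSMUSG00000042414, chromosome 1), a PR-domain factor largely restricted to pluripotent cells and early germ cells, had the estimate closest to 0. The Ctrl libraries read 62.5, 58.9 and 45.1 CPM, the Ezh2 KO libraries 71.5, 48.8 and 48.9 CPM. The highest library was in Ezh2 KO and the lowest in Ctrl, so the Ezh2 KO values span most of the Ctrl range. The Ezh2 KO level was 102% of Ctrl with a 95% interval of 71.5% to 145% (log2 fold change 0.02 ± 0.22 SE, edgeR adjusted p = 0.994).

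Tfap2c (ENSMUSG00000028640, chromosome 2), an AP-2 family factor that acts in germ cells and in trophoblast, had the lowest unadjusted p of the 6. In the Ctrl libraries it read 308, 315 and 277 CPM, as opposed to 279, 143 and 258 CPM in the Ezh2 KO libraries. The Ctrl libraries lay close together, and a single Ezh2 KO library, replicate 2, stood far under the other 5. Means were 300.2 ± 20.1 CPM and 227 ± 73.0 CPM (SD, n = 3). The Ezh2 KO level came to 75.5% of that in Ctrl, and its 95% interval ran from 51.5% to 111% (log2 fold change -0.41 ± 0.24 SE, unadjusted p = 0.128, edgeR adjusted p = 0.976). Leaving out 1 library moved the log2 fold change of Tfap2c between -0.58 (without Ezh2 KO replicate 1) and -0.15 (without Ezh2 KO replicate 2). Without both libraries of extreme score it was -0.14. Pair by pair, Ezh2 KO held 90.4%, 45.4% and 93.0% of Ctrl. Trophoblast also expresses Tfap2c. The 12 trophoblast markers listed (10 tested, none at 0 in all libraries) summed to 274 CPM in Ezh2 KO replicate 2. Of them, Cdx2, Tpbpa and Prl3d1 lay under 1 CPM. The sums were 233 and 395 CPM in Ezh2 KO replicates 1 and 3, and 157 to 474 CPM in Ctrl. Without the most abundant marker they were 101 to 266 CPM in Ctrl and 141 to 219 CPM in Ezh2 KO. The part of trophoblast in these levels was not tested.

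Sall4 (ENSMUSG00000027547, chromosome 2), a zinc finger factor of pluripotent and germ cells that recruits the NuRD repressor complex, gave one of the narrowest intervals. Reads of Sall4 came to 429.8, 437 and 342 CPM for the Ctrl libraries, and to 417, 336 and 389 CPM for the Ezh2 KO libraries. In each group 1 library lay under the others, Ctrl replicate 3 and Ezh2 KO replicate 2, at nearly the same value. The Ezh2 KO level was 94.4% of Ctrl with a 95% interval of 74.1% to 120.25% (log2 fold change -0.08 ± 0.15 SE, edgeR adjusted p = 0.977). In GENCODE M21 an antisense transcript, Gm14261, covers 9.50% of the Sall4 exons. Without strand, reads in that stretch cannot be assigned to 1 of the genes, and how they were counted is not given.

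**Figure D2:**
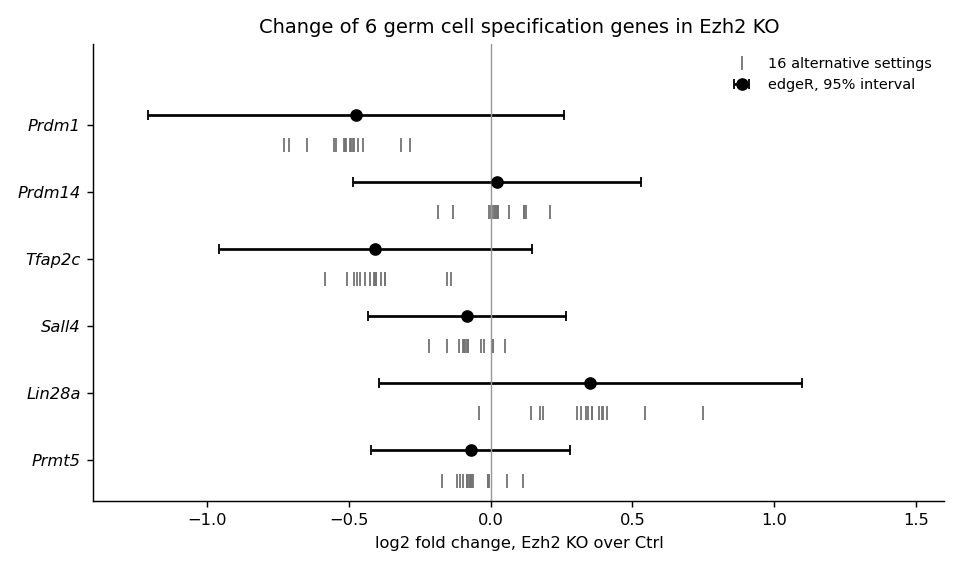
Log2 fold change of each gene, Ezh2 KO over Ctrl, from edgeR (circles, with the 95% interval as bars) and under 16 alternative settings (grey ticks). Every interval crosses 0; the ticks of Prdm1 (-0.73 to -0.28) and Tfap2c (-0.58 to -0.14) stay under 0 and those of the other 4 genes lie on both sides.

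Lin28a (ENSMUSG00000050966, chromosome 4) differed most between libraries of one group. The Ctrl libraries read 36.3, 78.1 and 43.55 CPM, the Ezh2 KO libraries 70.2, 83.2 and 48.3 CPM. Replicate 2 was the highest library in both groups, and Ctrl replicate 1 was the lowest of all. Means were 52.7 ± 22.3 CPM for Ctrl, and 67.2 ± 17.6 CPM for Ezh2 KO (SD, n = 3). The Ezh2 KO level was 128% of Ctrl with a 95% interval of 76.1% to 214%, the widest on the log2 scale among the 6 (log2 fold change 0.35 ± 0.32 SE, edgeR adjusted p = 0.976). By pair the Ezh2 KO libraries held 193%, 106% and 111% of Ctrl, higher in 3 of 3, as were 17.9% of all tested genes. Leaving out 1 library moved the log2 fold change of Lin28a between 0.14 (without Ctrl replicate 1) and 0.75 (without Ctrl replicate 2), and without both libraries of extreme score it was -0.04. The antisense transcript Gm13061 covers 5.86% of the Lin28a exons, with the same limit as for Sall4.

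LIN28A is known for binding let-7 precursors, with its zinc knuckles on a GGAG motif near the end of the precursor's loop. The RefSeq hairpins of let-7g (GRCm38.p6, chr9:106178840-106178927, plus strand), which holds the motif, and let-7b (GRCm38.p6, chr15:85707319-85707403, plus strand), which lacks it, are shown to make that contrast visible, with GGAG in capitals. The mature let-7g follows, with its seed (bases 2 to 8) in capitals.
let-7g hairpin: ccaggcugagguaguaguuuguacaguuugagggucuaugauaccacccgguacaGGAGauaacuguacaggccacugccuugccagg
let-7b hairpin: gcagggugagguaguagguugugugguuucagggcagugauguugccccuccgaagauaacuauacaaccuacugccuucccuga
let-7g-5p: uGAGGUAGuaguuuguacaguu
Read along the RNA, GGAG occurs in 9 of the 12 let-7 family hairpins in that table (miR-98 included) and in 44.5% of all 1005 mouse hairpins there, and all 9 distinct 5p mature sequences of the family share the seed GAGGUAG. These letters are a description of the known target: the count table was made from messenger RNA libraries, and let-7 was not analysed here.

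Prmt5 (ENSMUSG00000023110, chromosome 14) was as tightly bounded as Sall4. Its Ctrl libraries read 292, 214 and 241 CPM and its Ezh2 KO libraries 249, 221 and 242 CPM. All 3 Ezh2 KO libraries fell inside the range of Ctrl, whose spread was set by replicate 1. The Ezh2 KO level was 95.2% of Ctrl with a 95% interval of 74.7% to 121% (log2 fold change -0.07 ± 0.15 SE, edgeR adjusted p = 0.978). The half-width of the interval was 0.35 on the log2 scale for both Prmt5 and Sall4, 0.51 for Prdm14, 0.55 for Tfap2c, 0.73 for Prdm1 and 0.74 for Lin28a, and the median over all tested genes was 0.71.

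The library profiles of the genes differed from each other. On log2 CPM centred over the 6 libraries, Ezh2 KO replicate 2 was low for Tfap2c (-0.83) but high for Lin28a (0.54) and Prdm1 (0.19). Ezh2 KO replicate 1 was the lowest library for Prdm1 (-0.68) and the highest for Prdm14 (0.37). Ctrl replicate 1 was low for Lin28a (-0.65) and high for Tfap2c (0.27) and Prmt5 (0.27). The lowest library of Tfap2c (Ezh2 KO replicate 2) and both the lowest and the highest library of Lin28a (Ctrl replicate 1 and Ezh2 KO replicate 2) are thus those of extreme score on the first principal component, while the highest library of Tfap2c was Ctrl replicate 2 (0.30), of score -1.20. That component's gene loadings went with transcript GC content (Spearman's rho -0.52 across 15629 genes, which are not independent replicates). GC content of the longest transcript was 46.3% for Prdm1 and 50.1% to 53.8% for the other 5 genes. When GC content was fitted as an offset, the log2 fold changes were -0.55 for Prdm1, -0.37 for Tfap2c and 0.36 for Lin28a.

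**Figure D3:**
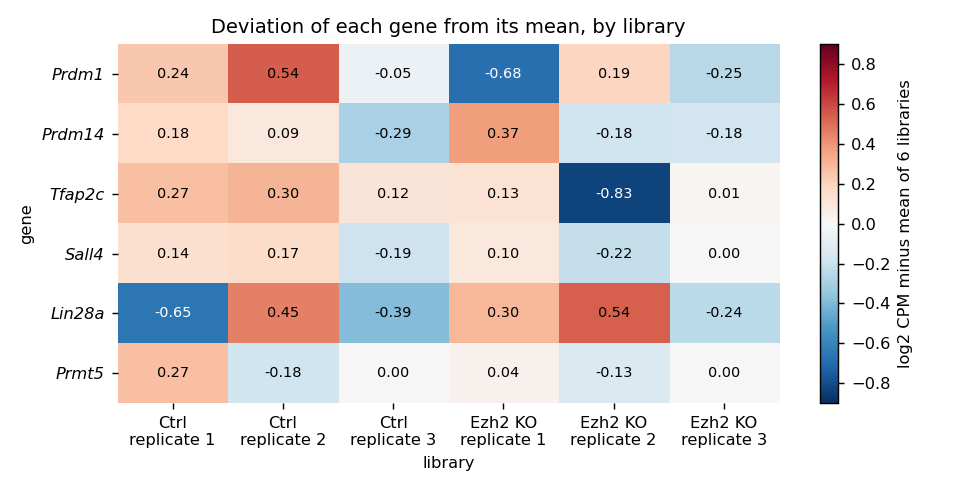
Log2 CPM of each gene (rows) in each library (columns) minus the gene's mean over the 6 libraries, with the value written in each cell (red above, blue under the mean). The strongest deviations are Tfap2c in Ezh2 KO replicate 2 (-0.83), Prdm1 in Ezh2 KO replicate 1 (-0.68) and Lin28a in Ctrl replicate 1 (-0.65), each in a different library.

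Genes with the most similar profiles were sought as those with the smallest root mean square difference in centred log2 CPM over the 6 libraries, among the 9036 genes whose log2 CPM averaged 3 or more (9035 where the gene itself was one of them). For Tfap2c these were Abcd4 (difference 0.07) and Zmym3 (0.07), and Zmym3 likewise had its lowest level in Ezh2 KO replicate 2 (26.8 CPM, against 48.5 to 61.3 CPM elsewhere). For Lin28a they were Gja1 (0.17) and Rex2 (0.17), and 0 genes lay within 0.15. That cut-off does not scale with spread, and Lin28a had the largest spread of the 6 (root mean square 0.45, against 0.15 for Sall4). For Prdm1 they were Epha7 (0.12) and Uhrf2 (0.12), with 7 genes within 0.15. Prdm14 lay closest to Pcyox1 (0.07) and Bambi (0.08), and Sall4 to Dync1li1 (0.06) and Ccdc71 (0.06). Prmt5 lay closest to Nmnat1 (0.02) and Msto1 (0.02), but with its small spread between libraries 1058 genes lay within 0.15. Such closeness is a description of 6 libraries.

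Within their families, 5 of the 6 genes were the most abundant member analysed and Prdm1 was not. Tfap2c made up 99.7% ± 0.140 (SD, n = 3) of the summed AP-2 level per kilobase in Ctrl and 99.7% ± 0.189 in Ezh2 KO, and Tfap2a, a relative of ectoderm and neural crest, stood at 0.225 ± 0.0999 CPM per kilobase in Ctrl. Sall4 made up 92.4% ± 1.29 of the Sall level in Ctrl and 92.3% ± 1.20 in Ezh2 KO, with Sall1 next at 5.47 ± 1.11 CPM per kilobase in Ctrl. Lin28a made up 94.5% ± 1.46 of the Lin28a and Lin28b level in Ctrl and 95.7% ± 2.23 in Ezh2 KO. Prmt5 made up 45.5% ± 1.41 of 8 arginine methyltransferase genes (Prmt1 was not analysed here) in Ctrl and 45.4% ± 1.42 in Ezh2 KO, followed by Prmt7 at 42.5 ± 4.01 CPM per kilobase in Ctrl. Among 15 Prdm genes, Prdm14 held 64.1% ± 3.03 in Ctrl and 63.5% ± 5.06 in Ezh2 KO, while Prdm1 ranked 6 with 3.17% ± 0.479 and 2.32% ± 0.939. The mean shares of Tfap2c, Sall4, Lin28a, Prmt5 and Prdm14 differed between groups by less than 1 SD of either group, and that of Prdm1 by more than the SD of Ctrl but less than that of Ezh2 KO, with no test made. Of 20 tested relatives, 0 passed edgeR's test and 0 had an unadjusted p under 0.05. Of the 20, 3 were higher and 2 lower in Ezh2 KO without overlap, beside 4.07% higher and 4.03% lower of all tested genes.

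**Figure D4:**
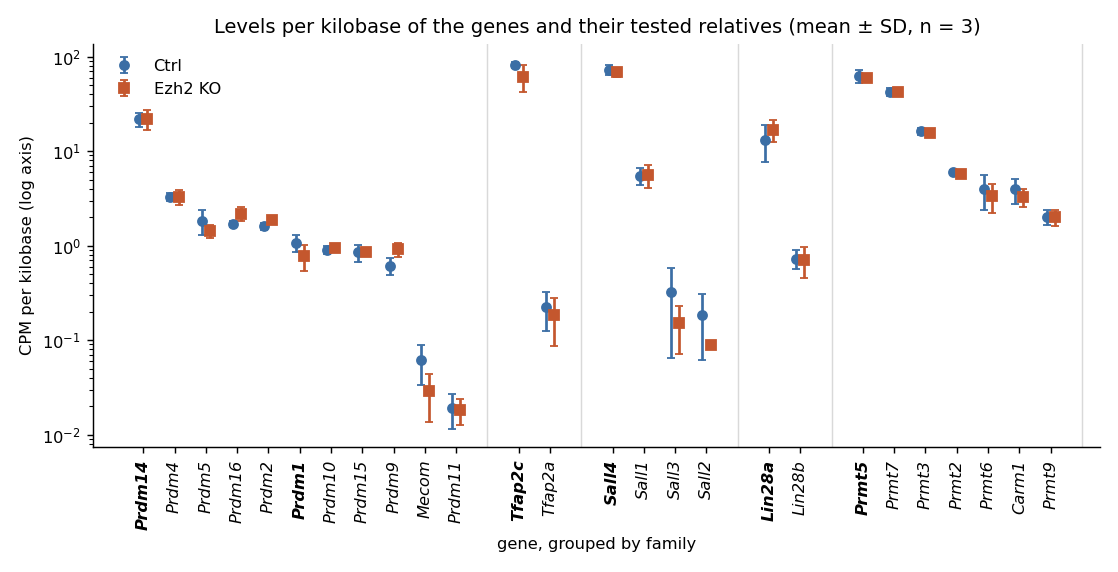
CPM per kilobase of exon (log axis) of the 6 genes (bold) and their tested relatives, grouped by family and ordered by level in Ctrl; circles are Ctrl and squares Ezh2 KO, with mean ± SD over 3 libraries. Tfap2c, Sall4, Lin28a, Prmt5 and Prdm14 head their families among the genes analysed, which leave out Prmt1. Prdm1 lies at 1.07 CPM per kilobase in Ctrl, 6 in rank of its family.

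Genes that act with, above or below the 6 were described as lists, counted in the fit over all genes. Together the 8 lists held 118 tested genes other than the 6, of which 0 passed edgeR's test. Of the 118, 5 higher and 3 lower genes had an unadjusted p under 0.05, beside 1.55% higher and 1.25% lower of all tested genes. Without overlap, 8 of the 118 were higher and 7 lower in Ezh2 KO, beside 4.07% higher and 4.03% lower of all tested genes. These shares of the 118 are larger than their backgrounds. The lists were chosen with earlier results of these data known, so these shares are not independent of the data. The median log2 fold change of these 118 genes was -0.06, against 0.01 for all tested genes. Negative values made up 59.3% of the 118 and 48.7% of all tested genes, the background for the sign counts below. Some genes are counted in more than 1 list, and no test of a list as a set was made.

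Upstream of the circuit, BMP receptors, SMADs, WNT effectors and ID genes (17 of 18 tested, median log2 fold change 0.01) included 9 positive and 8 negative values. Id2, a BMP-induced inhibitor of helix-loop-helix factors, had the smallest p of that list, with Ctrl libraries of 21.3, 30.8 and 22.4 CPM and Ezh2 KO libraries of 48.0, 58.0 and 42.2 CPM. Its 3 Ezh2 KO libraries all lay above Ctrl (log2 fold change 0.99 ± 0.22 SE), but the edgeR adjusted p was 0.976. T (Brachyury), the mesoderm factor that can switch on Prdm1 and Prdm14, was near the limit of detection over 0.248 to 0.390 CPM for Ctrl, and 0.0247 to 0.888 CPM for Ezh2 KO.

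Corepressors of PRDM1 and PRDM14 (13 tested, 8 negative, median -0.14) had 0 called. Cbfa2t2, the partner that PRDM14 needs, averaged 253 ± 61.9 CPM for Ctrl, and 211 ± 3.75 CPM for Ezh2 KO (SD, n = 3; later pairs of means have the same order). The Groucho gene Tle3 stood at 27.4 ± 6.96 and 29.4 ± 7.97 CPM, and the demethylase gene Kdm1a at 61.3 ± 11.5 and 65.4 ± 26.9 CPM. Runx1t1, a relative of Cbfa2t2, had the smallest p of the list and no overlap between groups, at 3.00 ± 0.981 and 1.27 ± 0.160 CPM (log2 fold change -1.24 ± 0.35 SE, edgeR adjusted p = 0.976).

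NuRD subunits, partners of SALL4 (12 tested, 10 negative, median -0.11), spanned log2 fold changes from -0.46 to 0.07, with 0 called. The remodeller Chd4 stood at 219 ± 6.95 and 205 ± 52.7 CPM, and Mta1, of smallest p, at 29.3 ± 2.68 and 21.3 ± 3.01 CPM with no overlap. Partners and substrates of PRMT5 (10 tested, 7 positive, median 0.07) had 0 called. Wdr77 (MEP50), the obligate cofactor of PRMT5, stood at 235 ± 16.3 and 249 ± 14.1 CPM. The adaptor genes overlapped between groups, Clns1a at 211 ± 12.8 and 235 ± 40.2 CPM and Riok1 at 51.3 ± 4.59 and 53.3 ± 5.62 CPM. Piwil2, a germ line Argonaute whose protein is methylated by PRMT5, had the smallest p, resting on 62.9 CPM in Ezh2 KO replicate 1 beside 25.1 and 28.7 CPM in the other 2 Ezh2 KO libraries and 17.4 to 27.04 CPM in Ctrl.

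In the let-7 pathway (16 tested, 11 negative, median -0.07), 0 genes were called. Lin28b, the paralog, stood at 6.61 ± 1.51 and 6.44 ± 2.29 CPM. The uridylyl transferase genes Tut4 (33.7 ± 7.79 and 34.6 ± 12.0 CPM) and Tut7 (34.8 ± 7.58 and 38.0 ± 6.70 CPM), which tag let-7 precursors, and the exonuclease gene Dis3l2 (22.2 ± 3.41 and 20.0 ± 5.33 CPM), which degrades them, overlapped between groups. Of known let-7 targets, Hmga2 stood at 8.02 ± 3.12 and 12.1 ± 4.92 CPM, and Igf2bp3, of smallest p, at 168 ± 1.95 and 127 ± 16.5 CPM with no overlap (log2 fold change -0.40 ± 0.15 SE, edgeR adjusted p = 0.976).

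**Figure D5:**
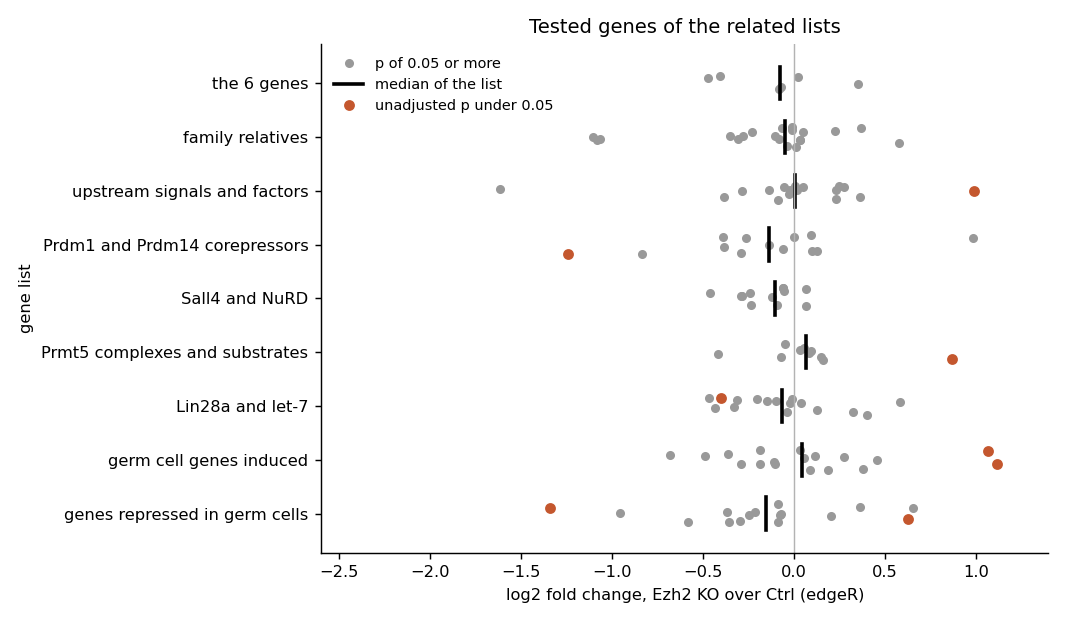
Log2 fold change, Ezh2 KO over Ctrl, of each tested gene in the 6-gene set and the 8 related lists (1 row a list; vertical jitter has no meaning), with black bars for list medians and orange points for an unadjusted p under 0.05. List medians lie between -0.15 and 0.07, and 0 of the points passed the adjusted threshold.

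Germ cell genes that follow specification (18 tested, 10 positive, median 0.05) had 0 called in edgeR. Dppa3, a maternal-effect gene switched on in PGCs, stood at 222 ± 28.6 and 181 ± 52.5 CPM, Nanos3, an RNA-binding survival factor, at 8.99 ± 3.66 and 10.9 ± 4.39 CPM, and Dnd1, which protects germ cell transcripts, at 21.7 ± 10.7 and 15.5 ± 6.30 CPM. Rhox6, an X-linked homeobox gene of germ cells and placenta, had the smallest p, at 61.4 ± 22.6 and 133 ± 32.95 CPM with no overlap. Its edgeR adjusted p was 0.976, and whether its reads are shared with related Rhox genes was not tested. DESeq2 with the replicate number as a block called 4 genes of these lists (Rhox6 and Rhox9 higher, Id2 higher and Lef1 lower) but 0 of the 6, beside 0.285% of all genes it tested.

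Genes that PGCs repress (16 tested, 12 negative, median -0.15) also had 0 called. Dnmt3b, the DNA methyltransferase gene that PRDM14 represses, had Ctrl libraries of 47.6, 44.4 and 51.9 CPM and Ezh2 KO libraries of 54.95, 75.8 and 91.3 CPM, and is also 1 of the 7 epiblast-like markers above. All 3 Ezh2 KO libraries lay above Ctrl, as for 4.07% of tested genes, with a log2 fold change of 0.63 ± 0.21 SE and an edgeR adjusted p of 0.976. Uhrf1, which guides maintenance methylation, stood at 242 ± 57.3 and 209 ± 92.3 CPM, and Ehmt1, an H3K9 methyltransferase gene, at 84.8 ± 20.0 and 79.7 ± 32.1 CPM.

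Promoter windows of 300 bases at the start site were matched for Prdm1, Lin28a and Prmt5 (RefSeq, GRCm38.p6). They held 20, 10 and 16 CG dinucleotides, which read the same on both strands. As many or more were found in 26.5%, 43.5% and 33.0% of 32851 windows of the same length, whose median was 7.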

How the data were processed

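Read counts per Ensembl gene from RNA-seq of 6 PGCLC libraries (3 Ctrl, 3 Ezh2 KO) were deposited by the authors as whole numbers, not normalized. CASAVA 1.8.4, Trimmomatic 0.33, TopHat2 2.0.11, featureCounts and the builds mm9 and NCBIM37 are named in the submitters' processing notes. Strand use is not given in the sources used here, nor is the annotation release.

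Symbols, exon lengths and GC content came from GENCODE M21 by gene ID (32938 of 37991 IDs matched), an annotation of another build, so gene coordinates are not printed. Genes passing filterByExpr (minimum count 10) were scaled by TMM and tested with edgeR 4.0.16 (R 4.3.3), robust quasi-likelihood F-test, group as the only term, two-sided, Benjamini-Hochberg over 16420 genes, threshold 0.05. The fits were tested on simulated counts drawn independently for each gene and library. The simulation held no GC effect, shared library pattern or pairing of replicates, so it did not cover these. Log2 CPM used a prior count of 2. Alternatives used DESeq2 1.42.0, limma-voom (limma 3.58.1), other filters and scaling, a GC offset (loess, span 0.5) and each library left out.

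Replicate numbers occur in both groups. Deviations from group means correlated at 0.583, 0.368 and 0.192 for libraries of the same number over 16420 genes, and at -0.522 to 0.297 for those of different numbers, the highest being Ctrl replicate 3 with Ezh2 KO replicate 2, above the same-numbered pair 3. As each same-numbered correlation was over 0.1, numbers were treated as pairs in the blocked fits and in ratios by pair; no label says what a number marks.

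The 6 genes and the lists were chosen with earlier results of these data known. Named were the 6 genes, Ezh2, 21 fixed partners and targets, the gene of smallest p in each list, and the 2 genes most like each of the 6. A gene that this rule selects is not reported here. Lef1, Rhox9, Foxd3, Pax6, Neurog1, Hand1, Elf5 and Eomes were named after their values were seen. Marker lists not printed in the report gave these summed ranges: endoderm 8.41 to 12.4 CPM in Ctrl and 7.03 to 14.7 CPM in Ezh2 KO (Sox17 of smallest p), mesoderm 6.28 to 12.6 and 5.02 to 11.3 CPM (Gata4; Foxf1 at 0; without Hand1, the most abundant, 2.90 to 3.94 and 2.24 to 2.59 CPM, which do not overlap), neural 39.9 to 53.2 and 23.6 to 47.9 CPM (Lhx2; Neurog2 at 0). The gene of smallest p among trophoblast markers was Cdx2. The part of these cell types in the results was not tested.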

Additional observations from a re-analysis of the deposited data

How the results depend on the processing

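Under the 16 alternatives none of the 6 genes passed the adjusted threshold, with adjusted p of 0.508 at the lowest. Prdm1 and Tfap2c kept a negative log2 fold change in all 16. Without Ctrl replicate 2, Lin28a had an unadjusted edgeR p of 0.034 (log2 fold change 0.75). Without Ezh2 KO replicate 1, Tfap2c had an unadjusted edgeR p of 0.0499 (log2 fold change -0.58). The share of all genes under 0.05 in those fits was not counted.
Values near 0 changed sign. Prdm14 was at -0.0061 with no filter and -0.18 to 0.12 with 1 library left out, and Sall4 at 0.0055 under the GC offset, 0.0089 under that offset with the replicate block, and -0.22 to 0.0093 with 1 library left out. Prmt5 ranged from -0.17 to 0.059 with 1 library left out. Without both libraries at the ends of the first component, an alternative chosen after seeing the data, Sall4 was at 0.051, Lin28a at -0.041 and Prmt5 at 0.11. The causes were not tested. Over all genes edgeR called 0, with and without the replicate block, DESeq2 called 5, and DESeq2 with the block called 50, among them 2 upstream genes and 2 germ cell genes of the lists; the block changed no call for the 6 genes. With the longest transcript as length, Tfap2c was at 100.6 CPM per kilobase in Ctrl and Prmt5 at 92.5. Prdm1 had the fewest reads of the 6 genes, 115 to 285 a library; Lin28a, with more reads, had an interval about as wide (half-width 0.74 against 0.73 on the log2 scale).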
